A study of Drosophila melanogaster with 27 samples.

Results

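Fruitless C (FruC) and Trithorax-like (Trl) shared 575 of the 4975 FruC regions of the Drosophila larval brain without the full set of Polycomb subunits that the study mapped. A FruC region was a FruC-Myc peak of replicate 1 that shared at least 1 bp with a replicate 2 peak, merged with that peak. Of the 4975 regions, 1433 overlapped a Trl peak of either replicate, 1087 of these had no Suppressor of Hairless (Su(H)) peak, and 575 of those did not carry both a Su(z)12 and a Caf-1 peak. The 575 regions were therefore chosen by their FruC-Myc, Trl, Su(H), Su(z)12 and Caf-1 peaks, and values of those 5 antibodies are given below as descriptions. Neither subunit had a peak in 270 regions, Su(z)12 alone had one in 211, and Caf-1 alone had one in 94.

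The study used CUT&RUN, in which an antibody tethers a nuclease that cuts out the DNA around its target, on third-instar larval brains. Control brains were brat11/Df(2L)Exel8040; fruC::myc, with a Myc tag on the endogenous FruC protein. Brains without FruC were brat11/Df(2L)Exel8040; fruC-DelC/fruAj96U3 and served only for the histone comparisons. Both genotypes lack brat, which fills the brain with supernumerary type II neuroblasts, so the controls are not wild type, and whole brains were used, so that other cell types were included. Each transcription factor sample held 50 brains and each histone sample 25. All peaks described here come from the control genotype, with 2 samples per antibody that the labels call replicates.

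FruC is a BTB zinc-finger protein made by 1 isoform group of the fruitless gene and represses transcription in neuroblasts. Trl, also called GAGA factor, is another BTB zinc-finger protein. It binds GAGAG words, opens chromatin and is found at promoters and at Polycomb response elements. Polycomb repressive complex 2 (PRC2) methylates histone H3 at lysine 27, Su(z)12 is a core subunit of it, and Caf-1 is a histone-binding subunit that other chromatin complexes also use. Su(H) is the DNA-binding partner of the Notch receptor.

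Sequences of 121 bp centred on a Trl summit are shown for 12 regions because the arrangement of words around the summits is what the sequence data turn on. Capitals mark GAGAG on either strand (GAGAG or CTCTC) and, on either strand, 5 GC-rich words described further below. The first 3 are rich in GAGAG, the next 6 come from regions with Trl peaks in both replicates, Antp and lncRNA:iab8 belong to the regions with the highest FruC signal, and CR11023 is 1 copy of a repeat. The letters are RefSeq sequence of the BDGP6 (dm6) build on the forward strand, none lies in an annotated UTR, and the gene is the 1 whose start site is nearest, followed by the annotation at the FruC summit.
Moe, promoter, Trl replicate 1, chrX:8891812-8891932: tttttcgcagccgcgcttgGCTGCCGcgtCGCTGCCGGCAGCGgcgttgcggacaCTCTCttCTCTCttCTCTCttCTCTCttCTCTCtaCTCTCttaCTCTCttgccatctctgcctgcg
rdx, intron, Trl replicate 1, chr3R:14017783-14017903: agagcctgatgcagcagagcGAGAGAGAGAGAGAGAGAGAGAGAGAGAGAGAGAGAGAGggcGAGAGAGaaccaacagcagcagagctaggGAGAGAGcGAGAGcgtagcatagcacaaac
disco-r, intergenic, Trl replicate 1, chrX:16150634-16150754: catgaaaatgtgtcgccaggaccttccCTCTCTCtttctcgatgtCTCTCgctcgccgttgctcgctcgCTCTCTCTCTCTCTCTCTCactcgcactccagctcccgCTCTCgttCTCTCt
CASK, promoter, Trl replicate 2, chr3R:21808894-21809014: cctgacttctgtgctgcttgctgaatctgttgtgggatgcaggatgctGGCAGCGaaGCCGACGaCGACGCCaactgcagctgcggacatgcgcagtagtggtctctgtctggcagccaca
fru, promoter, Trl replicate 2, chr3R:18450305-18450425: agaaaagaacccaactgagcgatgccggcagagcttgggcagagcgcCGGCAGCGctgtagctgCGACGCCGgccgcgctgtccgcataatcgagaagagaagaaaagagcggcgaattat
CG32532, intron, Trl replicate 1, chrX:19546764-19546884: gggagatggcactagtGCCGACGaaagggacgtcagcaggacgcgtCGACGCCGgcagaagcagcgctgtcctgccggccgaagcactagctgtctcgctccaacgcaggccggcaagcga
CG43347, promoter, Trl replicate 1, chrX:10620228-10620348: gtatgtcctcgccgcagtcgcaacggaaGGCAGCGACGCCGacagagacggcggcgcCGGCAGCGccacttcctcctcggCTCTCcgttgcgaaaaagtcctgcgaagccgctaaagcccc
rt, exon, Trl replicate 1, chr3L:11586961-11587081: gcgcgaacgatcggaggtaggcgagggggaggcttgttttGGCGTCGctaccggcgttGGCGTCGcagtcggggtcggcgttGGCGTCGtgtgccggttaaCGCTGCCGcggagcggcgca
N, exon, Trl replicate 2, chrX:3135694-3135814: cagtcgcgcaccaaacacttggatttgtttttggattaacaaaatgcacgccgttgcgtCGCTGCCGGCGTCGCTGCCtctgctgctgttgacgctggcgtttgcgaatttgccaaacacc
Antp, intron, Trl replicate 1, chr3R:6966692-6966812: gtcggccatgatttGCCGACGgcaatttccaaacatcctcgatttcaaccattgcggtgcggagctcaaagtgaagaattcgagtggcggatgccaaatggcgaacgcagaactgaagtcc
lncRNA:iab8, intron, Trl replicate 1, chr3R:16913632-16913752: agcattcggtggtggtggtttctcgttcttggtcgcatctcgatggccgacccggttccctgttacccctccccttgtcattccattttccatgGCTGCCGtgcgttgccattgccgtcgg
CR11023, intergenic, Trl replicate 1, chr2L:344-464: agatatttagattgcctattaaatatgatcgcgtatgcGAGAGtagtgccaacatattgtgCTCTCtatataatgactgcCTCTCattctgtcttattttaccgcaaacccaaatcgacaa

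GAGAG was densest at the FruC summits of the 575 regions and had a local dip at their Trl summits. Within 20 bp of the FruC-Myc summit there were 2.38 GAGAG words per 100 bp in replicate 1 and 1.86 in replicate 2. At 60 to 100 bp from the summit the density was 1.06 and 1.16, and at 300 to 500 bp it was 0.350 and 0.374. Around Trl the order of the 2 nearer ranges was inverted. Within 20 bp of the Trl summit the density was 0.831 in replicate 1 (295 regions) and 0.539 in replicate 2 (408 regions), below the 1.72 and 1.62 found 60 to 100 bp away. At 300 to 500 bp from the Trl summit it was 0.395 and 0.325, so the dip stayed above the distant level. Both replicates of both antibodies thus gave a single maximum for FruC and a dip between 2 shoulders for Trl. In Trl replicate 1 the dip was off centre, with 0.525 from -20 to 0 bp and 1.14 from 0 to 20 bp.

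**Figure D1:**
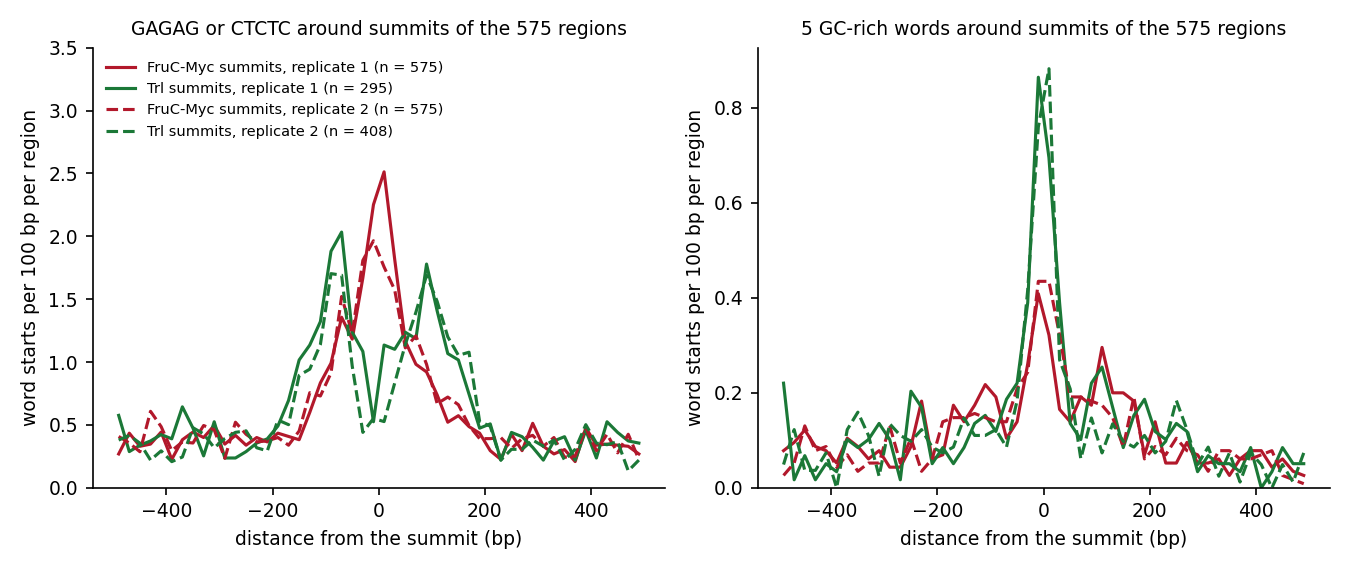
Word starts per 100 bp per region against distance from the summit in bp, for GAGAG or CTCTC (left) and for 5 GC-rich words (right), at FruC-Myc summits (red) and Trl summits (green) of replicate 1 (solid) and replicate 2 (dashed). GAGAG has its maximum at the FruC summit and dips at the Trl summit, with 1.72 and 1.62 words per 100 bp on the Trl shoulders. The GC-rich words have their maximum at the Trl summit, and they are also denser near the FruC summit than at 60 to 100 bp from it. They were chosen on the Trl replicate 1 summits of 128 of these regions.

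The printed sequences are examples of both kinds of summit, each from a single replicate, and the other replicate can differ. At disco-r the printed replicate 1 window holds 13 GAGAG words and the replicate 2 window 0. At N the printed replicate 2 window holds 5 GC-rich words and the replicate 1 window 1. At Moe, which encodes a protein that links actin to the plasma membrane, the 121 bp hold 7 GAGAG words. At rdx, which encodes a BTB adaptor of a ubiquitin ligase, they hold 23, most of them in 1 long GA repeat. Moe is among the 10 regions with the highest Trl folds, and of the others in that group that are printed, CG43347 holds 1 and fru, CG32532, CASK and rt hold 0. Among those not printed, the replicate 1 window holds 2 at CG34417 and 1 each at Ziz and Polr1D. In the wider window of 100 bp on each side of the Trl replicate 1 summit, 8 of those 10 regions had GAGAG. The share in the 128 regions with Trl in both replicates was 71.9%.

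The dip was not a feature of these 575 regions alone. At the 512 regions with Trl and full PRC2 the density within 20 bp of the Trl summit was 0.446 and 0.424, against 1.50 and 1.39 at 60 to 100 bp. At Trl peaks outside FruC regions and Su(H) peaks it was 0.503 (179 peaks) and 0.515 (272 peaks), against 1.15 and 1.48. The 2705 FruC regions with no Trl, Su(H) or full PRC2 had 1.15 GAGAG words per 100 bp within 20 bp of the FruC-Myc replicate 1 summit, fewer than the 2.38 of the 575 regions.

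Region by region, the nearest GAGAG word lay closer to FruC than to Trl more often than the reverse. In replicate 1, 258 of 295 regions had a word within 300 bp of both summits, and the median distance was 25.5 bp from the FruC summit and 58 bp from the Trl summit. The word was nearer to FruC in 171 regions, nearer to Trl in 82 and equally far in 5. In replicate 2, with 356 of 408 regions, the medians were 36 and 68 bp, and the word was nearer to FruC in 222, nearer to Trl in 125 and equally far in 9. The summit is the position at which the peak caller placed the most fragments, and only fragments under 120 bp were kept, so whether the dip reflects where Trl binds or where the nuclease cut was not tested.

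The summits themselves lay close together, which the choice of regions partly set. A Trl peak had to overlap the region, and this bounds the distance. Median widths were 383 bp for the 575 regions and 113 and 119 bp for all Trl peaks of replicates 1 and 2. The smallest distance between a FruC-Myc and a Trl summit of a region had a median of 27 bp, with quartiles of 7 and 69 bp and a maximum of 619 bp. It was at most 50 bp in 384 regions (66.8%) and at most 200 bp in 558 (97.0%), while 65.4% and 96.7% of the regions with Trl and full PRC2 lay within the same limits. For single pairs of replicates the median was between 45 and 56.5 bp, and the FruC-Myc summits of replicates 1 and 2 were a median of 24 bp apart. The 27 bp is the smallest of up to 4 pairs and is not comparable with a single pair.

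In all, 410 of the 575 regions had GAGAG within 100 bp of the FruC-Myc replicate 1 summit. That is 71.3% (95% Wilson interval 67.5 to 74.9), against 49.3% of all 4975 FruC regions and 21.5% of the 664860 consecutive windows of the same length on the 6 chromosome arms. Intervals here and below cover counting error only. The regions with Trl and full PRC2 stood at 69.1% (65.0 to 73.0), inside the interval of the 575, and those with no partner at 44.3% (42.4 to 46.1). The longer word GAGAGAG was in 213 regions (37.0%), against 33.2% and 16.9% in the same classes and 2.45% of windows. GAGAG was absent from this window in 165 of the 575 regions and present 5 or more times in 136.

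The regions with most GAGAG words were near rdx (23 words), ush (19), Tlk and disco-r (17 each) and Pde8 (16). ush encodes a partner of GATA factors, Tlk a kinase that acts on chromatin assembly factors, disco-r a zinc-finger protein and Pde8 a cyclic nucleotide phosphodiesterase. Their FruC-Myc folds were unremarkable in rdx (11.3 and 8.13) and low in replicate 1 of Tlk (5.03 and 7.21), and Pde8 had 17.8 and 13.1. Across the 575 regions the GAGAG count followed the FruC-Myc fold hardly at all (Spearman's rho 0.100 in replicate 1 and 0.014 in replicate 2). It followed the Trl fold only weakly (0.137 over 295 regions and 0.121 over 408). These are descriptions across regions that share 1 library per replicate.

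A second kind of sequence marked the Trl summits. Words of 7 letters within 50 bp of the Trl replicate 1 summit were ranked in the 128 regions with Trl in both replicates against the FruC summits of regions with no partner, with both strands searched, and the top 5 of 5277 words were kept. CGACGCC was in 16.4% of the 128 and 1.11% of the comparison windows. CGCTGCC was in 18.0% and 3.18%, CGGCAGC in 15.6% and 2.59%, CGGCGTC in 12.5% and 0.925%, and CGTCGGC in 12.5% and 0.962%. They are partly overlapping pieces of related GC-rich stretches. Since the words were chosen on these summits, and after the sequences at the strongest of them had been seen, those shares are a description of the choice.

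Trl summits that had no part in the choice of words carried them as well. Any of the 5 words lay within 100 bp of the Trl summit in 38 of 167 regions with Trl in replicate 1 only (22.8%, 17.1 to 29.7) and in 62 of 280 with Trl in replicate 2 only (22.1%, 17.7 to 27.4). The share was 25.4% and 24.3% at Trl summits of regions with full PRC2, and 24.0% and 21.3% at Trl summits outside FruC regions. At FruC-Myc replicate 1 summits the share was 21.6% (18.4 to 25.1) in the 575 regions, 17.6% (14.5 to 21.1) with Trl and full PRC2 and 11.5% (10.4 to 12.8) with no partner. Over all windows of the arms it was 8.68%, a background not matched for GC content. The part of base composition in these differences was not tested. Within 100 bp the members' FruC and Trl summits, which lie close together, thus had similar shares.

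At Trl summits their position was opposite to that of GAGAG. Within 20 bp of the Trl summit of the 575 regions there were 0.780 such words per 100 bp in replicate 1 and 0.821 in replicate 2, which dropped to 0.157 and 0.104 at 60 to 100 bp. In the regions with Trl in 1 replicate only the values were 0.434 and 0.120 for replicate 1, and 0.509 and 0.0893 for replicate 2. The 0.780 and 0.821 include the 128 regions on which the words were chosen. At FruC-Myc summits of the 575 regions the density within 20 bp was 0.365 and 0.435, against 0.165 and 0.163 at 60 to 100 bp. The words were thus denser near FruC summits too, as GAGAG was. The 0.365 and 0.435 were below the values at all Trl summits but close to those for Trl in 1 replicate only. Median GC content within 100 bp was near 50% at the members' Trl summits and at their FruC summits (49.8% at FruC). The windows of the 2 summits mostly overlap, so these medians cannot tell the summits apart.

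Among the 128 regions on which they were chosen, the words were most frequent where Trl was highest. The 128 regions with Trl in both replicates were put in 4 groups of 32 by the lower of their 2 Trl folds. In the group with folds of 6.83 to 14.4, 59.4% (42.3 to 74.5) had a GC-rich word within 100 bp, and in the 3 other groups 28.1%, 21.9% and 21.9% did, the last with an interval of 11.0 to 38.8. GAGAG was present in 84.4%, 68.8%, 65.6% and 68.8%, a narrower spread with overlapping intervals. The words had been chosen on these same 128 regions, after the sequences at the strongest Trl summits had been seen. The ranking itself did not use the fold, but the higher share in the top group is not independent of the choice.

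**Figure D2:**
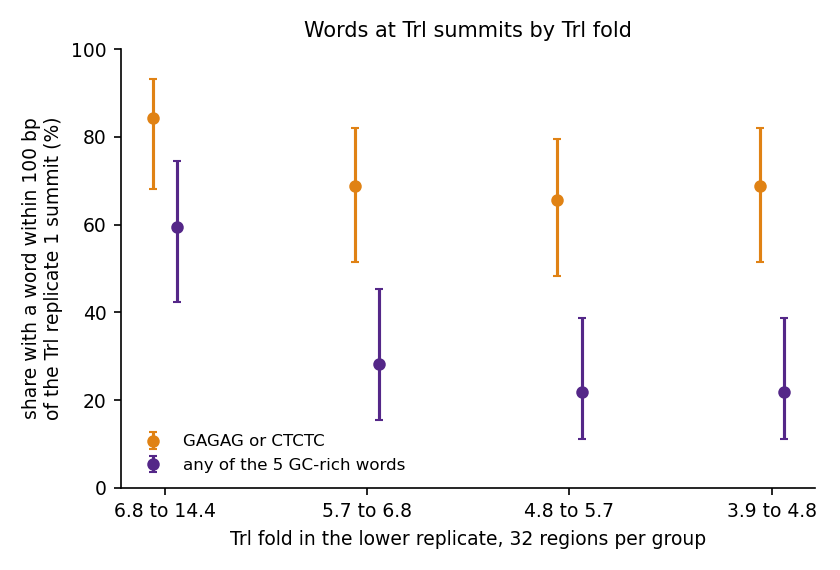
Share of regions, in percent with 95% Wilson intervals, that hold GAGAG or CTCTC (orange) or any of 5 GC-rich words (violet) within 100 bp of the Trl replicate 1 summit, in 4 groups of 32 regions ordered by the lower of the 2 Trl fold enrichments. The GC-rich words are at 59.4% in the group with the highest folds and at 21.9% to 28.1% in the others. They were chosen on these regions after the strongest Trl summits had been seen.

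The choice of regions required FruC-Myc in both replicates but Trl in either, so the levels of the 2 antibodies are given side by side and not compared. Fold enrichment, the height of a peak over the local background as the peak caller gave it, had a median of 9.10 for FruC-Myc in replicate 1 (2.52 to 29.3) and 7.37 in replicate 2 (3.73 to 19.9). Trl had a median of 5.75 in replicate 1 (3.85 to 15.0, 295 regions) and 5.96 in replicate 2 (3.79 to 16.2, 408 regions). Trl had a peak in both replicates in 128 regions, in replicate 1 alone in 167 and in replicate 2 alone in 280. Spearman's rho between replicates was 0.616 for FruC-Myc and 0.370 for Trl, and between the FruC-Myc and Trl folds it was 0.102 in replicate 1 and 0.040 in replicate 2.

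**Figure D3:**
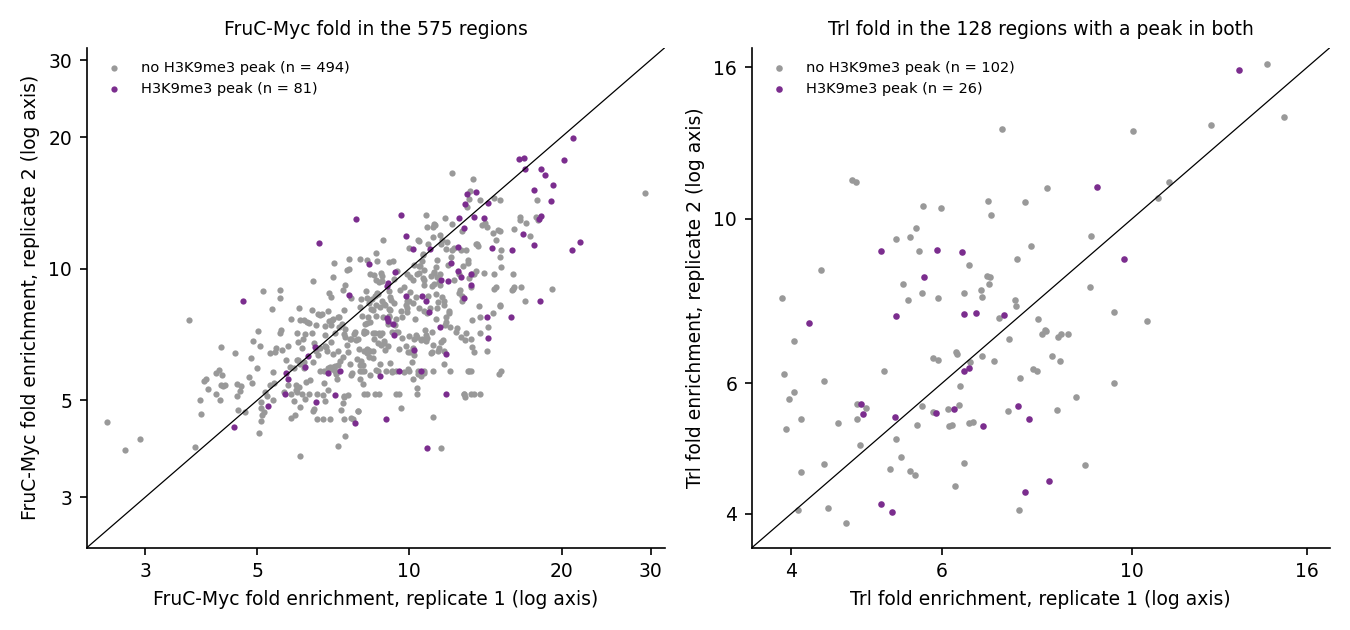
Fold enrichment of replicate 2 against replicate 1 on log axes with the line of equality, for FruC-Myc in the 575 regions (left) and for Trl in the 128 regions with a peak in both replicates (right), each point a region, violet where an H3K9me3 peak overlaps. Most FruC-Myc points lie below the line (median ratio of replicate 1 to replicate 2 1.17), the Trl points scatter on both sides of it (0.954), and violet points are frequent among the highest FruC-Myc values.

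The 10 regions with the highest FruC-Myc fold in both replicates were led by gsb. The region at gsb, a segment-polarity gene that encodes a paired-homeodomain factor, lay at -143 bp from the start site, where negative values are upstream, and had 21.1 and 19.9. The intronic region at lncRNA:iab8, in the bithorax complex, had 20.2 and 17.7, and the intronic region at the Hox gene Antp had 19.2 and 15.5. The region at rib, which encodes a BTB factor of tube formation, lay at -136 bp and had 18.6 and 16.4 with FruCOM folds of 11.1 and 12.3. The promoter region of fd59A, a forkhead gene, had 16.9 in both replicates, and the intronic region of retn, an ARID factor gene, had 18.2 and 16.9. CG13891, tou, asRNA:PS4 and px completed the 10, px with the least similar replicates (29.3 and 14.9).

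All 10 had a Su(z)12 peak, beside 211 of the 575 regions. Since regions with both subunits had been left out, none could have a Caf-1 peak as well. Su(z)12 peaks were used in the choice of regions, so this count is a description. An H3K9me3 peak overlapped 9 of the 10, beside 14.1% of the 575 regions and 28.7% of those with FruC -log10 Q-values of 100 or more. All 10 lay in a listed H3K27me3 window, beside 77.7% and 88.7%. A listed window is an interval from the authors' search for changes of that mark between control and fruC-null brains. Only its coordinates were used. Among the 10 regions gsb had a Trl peak in replicate 2 only (6.44), lncRNA:iab8 in replicate 1 only (5.16), and fd59A had 5.93 and 9.06. FruCOM had a peak in 9, lncRNA:iab8 being the exception, beside 75.0% and 89.6%.

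The 10 regions with the highest Trl fold were taken from the 128 with Trl in both replicates. Of the 10 with the highest FruC-Myc fold, 5 were in that pool. The 2 lists had no region in common, but lists of 10 are too short for a reading of that. The highest lower value belonged to the region at -282 bp from a start site of fru itself, the gene that encodes FruC, with Trl at 14.4 and 16.2 and FruC-Myc at 8.75 and 8.15. Ziz, which encodes an activator of small GTPases, had Trl at 15.0 and 13.7 in an exon, with FruC-Myc at 10.5 and 5.68. CG32532 had Trl at 13.3 and 15.9 and was also high in FruC-Myc, at 13.5 and 14.9. CAP followed with Trl at 12.4 and 13.4, and Moe with 11.0 and 11.2 at -50 bp.

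Trl folds in the other 5 were 10.7 in both replicates of CG43347, 10.0 and 13.1 in CASK, which encodes a synaptic scaffold, 9.09 and 11.0 in CG34417, 8.96 and 9.47 in Polr1D, which encodes a subunit of RNA polymerases I and III, and 9.79 and 8.82 in rt, which encodes a protein O-mannosyltransferase. Their FruC-Myc replicate 1 folds ran from 4.14 in Polr1D to 14.9 in CASK. Of the 10 regions with the highest Trl, 5 had neither PRC2 subunit, beside 270 of all 575, and 7 lay in a listed H3K27me3 window, beside 77.7%, so neither count stood out. An H3K9me3 peak overlapped 3, beside 20.3% of the 128 regions with Trl in both replicates. A GC-rich word stood within 100 bp of the Trl replicate 1 summit in 9 of the 10, beside 32.8% of those 128 regions. All 10 were among the 128 on which the words were chosen, so this count is a description. GAGAG stood within 100 bp of that summit in 8, beside 71.9%.

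FruCOM, an antibody against the part of the protein that all Fruitless isoforms share, was not used to choose the regions. It had a peak in replicate 1 in 404 of them (70.3%, 66.4 to 73.9), against 60.6% of all FruC regions, and in replicate 2 in 290 (50.4%, 46.4 to 54.5), against 45.5%. A peak in either replicate was found in 431 (75.0%, 71.3 to 78.3), against 64.2%, and a peak in both in 263 (45.7%, 41.7 to 49.8), against 41.9%, which lies inside the interval. The regions with Trl and full PRC2 stood higher, at 96.1% (94.0 to 97.5) for either replicate, and those with no partner lower, at 45.6% (43.7 to 47.5). FruCOM fold had a median of 6.65 (3.26 to 19.6) in replicate 1 and 6.21 (3.77 to 23.7) in replicate 2.

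The FruCOM share moved with the strength of the FruC peak, which differed between the classes. The median -log10 Q-value of the FruC-Myc replicate 1 peak, the peak caller's measure of confidence, was 66.8 in the 575 regions, 114 in those with Trl and full PRC2 and 43.5 in those with no partner. At values from 50 to 100 the FruCOM share was 77.9% of 271 regions, 94.7% of 170 and 60.9% of 949 in the same order. At 100 or more it was 89.6% of 115, 98.4% of 318 and 76.2% of 164. The order of the 3 classes was thus the same at like FruC strength, with smaller gaps at the top. FruC-Myc and FruCOM were measured in the same genotype, and whether they shared brains is not given in the sources used here.

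**Figure D4:**
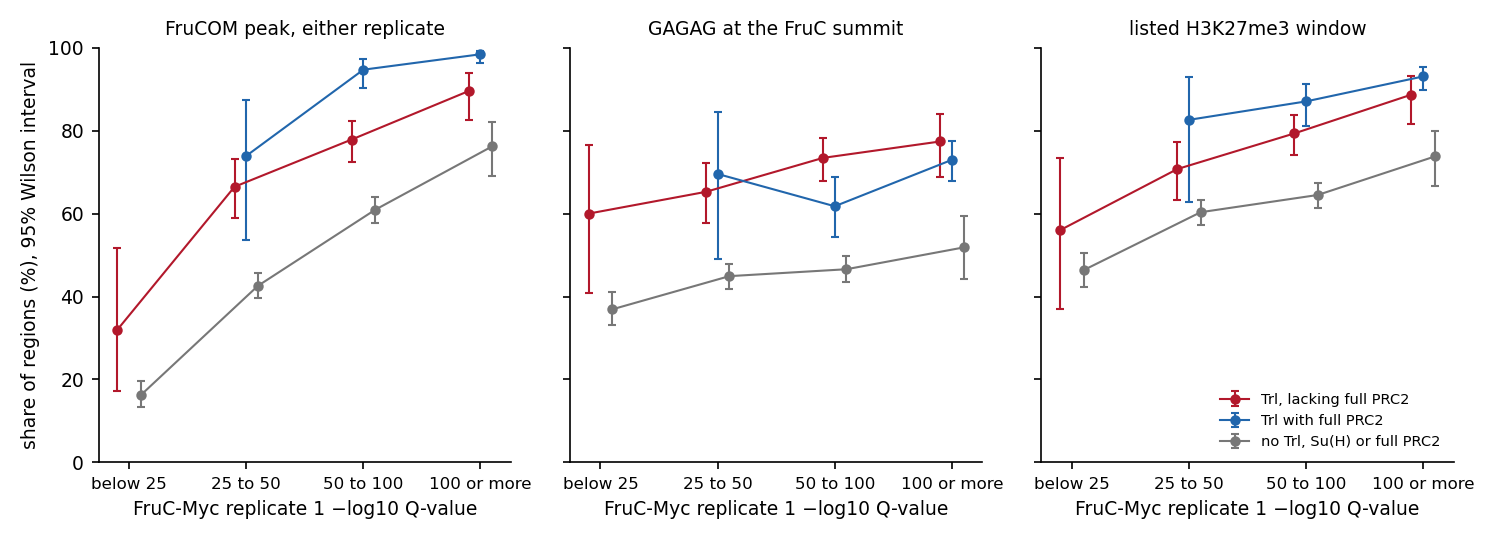
Share of regions in percent, with 95% Wilson intervals, that have a FruCOM peak, GAGAG within 100 bp of the FruC summit or a listed H3K27me3 window, in 4 ranges of the FruC-Myc replicate 1 -log10 Q-value, for the 575 regions (red), regions with Trl and full PRC2 (blue, no point below 25) and regions with no Trl, Su(H) or full PRC2 (grey). The FruCOM and H3K27me3 shares are higher in the ranges of stronger FruC peaks, and the red GAGAG share lies above the grey one in each range.

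FruCOM was more frequent where 1 PRC2 subunit had a peak than where neither had. The share with a FruCOM peak in either replicate was 63.7% (57.8 to 69.2) of the 270 regions with neither subunit, 84.8% (79.4 to 89.0) of the 211 with Su(z)12 only and 85.1% (76.5 to 90.9) of the 94 with Caf-1 only. For both replicates together the shares were 31.9%, 63.0% and 46.8%. FruC strength differed too, with median -log10 Q-values of 53.4, 76.1 and 80.5. From 50 to 100 the share with FruCOM in either replicate was 69.9% (61.3 to 77.3) of 123 regions, 83.5% (74.9 to 89.6) of 97 and 86.3% (74.3 to 93.2) of 51, a narrower gap with overlapping intervals. The part of FruC strength in it was not tested further. GAGAG near the FruC summit differed less, at 68.9%, 72.5% and 75.5% with overlapping intervals. Peak calls of different antibodies in 1 tissue can share signal at open chromatin, and the part of that in these shares was not tested.

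Promoters, here the 1000 bp before and the 100 bp after a start site, held 289 of the 575 FruC summits (50.3%, 46.2 to 54.3), against 46.9% of all FruC regions. Introns held 174 (30.3%), exons outside promoters 44 (7.65%) and intergenic sequence 68 (11.8%). The promoter share was 56.1% (51.7 to 60.3) in regions with Trl and full PRC2 and 44.6% (42.7 to 46.5) with no partner. The median distance to the nearest start site was 554 bp. By chromosome, 153 regions lay on 3R, 111 on 2R, 108 on 3L, 101 on 2L and 100 on X, each of these 5 arms with a share within 2 percentage points of its share of all FruC regions. Chromosome 4 had 1 region (0.174%), against 83 of all FruC regions (1.67%), and Y had 1 (0.174%), against 41 (0.824%).

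**Figure D5:**
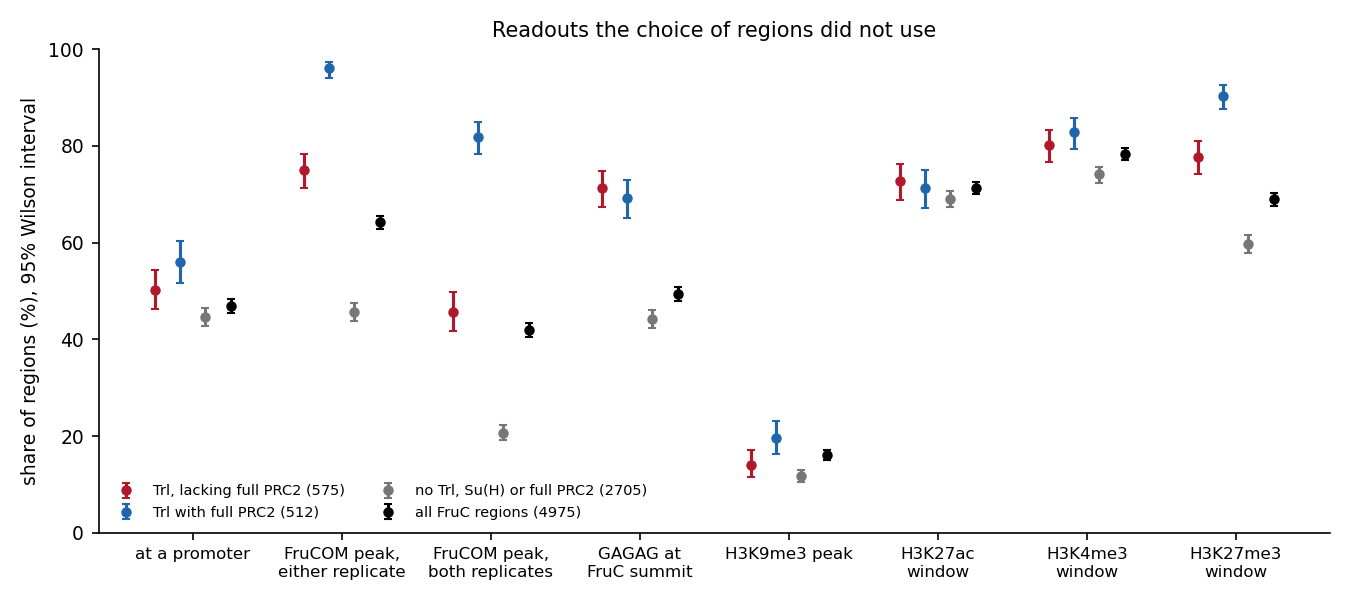
Share of regions in percent, with 95% Wilson intervals, for 8 readouts that the choice of regions did not use, in the 575 regions (red), 512 regions with Trl and full PRC2 (blue), 2705 regions with no Trl, Su(H) or full PRC2 (grey) and all 4975 FruC regions (black). The red and blue points are close for GAGAG (71.3% and 69.1%) and apart for FruCOM in either replicate (75.0% and 96.1%) and the H3K27me3 window (77.7% and 90.4%).

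The 575 regions had 507 different nearest genes, 458 with 1 region, 37 with 2 and 12 with 3 or more. CR11023 had 9, Antp 4, and bun, psq, inv, tou, Eip75B, pum, rdx, lncRNA:CR40469, N and Mnt 3 each. bun encodes a TSC22-family factor, inv a homeodomain protein, Eip75B a nuclear receptor induced by ecdysone, pum a translational repressor and Mnt an antagonist of Myc. psq encodes another BTB protein that binds GAGA sequence. The region at -437 bp of psq had Trl at 4.72 and 11.3 and FruC-Myc at 8.82 and 7.11.

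The 9 regions next to CR11023 were copies of 1 sequence. They lay at the end of arm 2L, between positions 319 and 5069, and their 121-bp Trl windows, read at offsets that are multiples of 458 bp, were 100% identical to the one printed. Reads from such copies cannot be told apart, so their FruC-Myc replicate 1 folds of 4.72 to 5.69 are not separate measurements. Without them the GAGAG density within 20 bp of the Trl summits was 0.790 and 0.473 and at 60 to 100 bp 1.66 and 1.57, so the dip was as deep. This check was added after the data were seen.

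The 3 regions of N, the Notch receptor gene, differed from each other. The exonic region 758 bp downstream of the start site had FruC-Myc at 3.86 and 4.65 and Trl at 6.83 and 8.33. The intronic region at 3101 bp had stronger FruC-Myc, 7.06 and 9.59, FruCOM at 9.92 and 6.77, and weaker Trl, 3.95 and 5.21. The intronic region at 7357 bp had FruC-Myc at 9.07 and 7.47 and Trl in replicate 2 only, at 9.99.

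The Notch pathway was about as frequent as among all FruC regions. The pathway list of 25 genes held 5 of the 575 regions, 0.870% against 0.764% of all FruC regions. Beside N they included E(spl)m3-HLH, a gene of the Enhancer of split complex, with FruC-Myc at 12.5 and 9.87 and Trl in replicate 1 only (5.96), and nmo, a kinase gene, with 6.61 and 7.89. Regions with a Su(H) peak had been left out, which bears on this count directly.

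Neuroblast identity and timing factors had 10 regions at 9 genes, 1.74% against 2.45% of all FruC regions. The intronic region of nub, a POU-domain factor gene, had FruC-Myc at 14.6 and 11.2, and that of chinmo, a BTB factor of early temporal identity, 10.7 and 9.50. pnt, an ETS factor gene, had 7.03 and 7.62, and nerfin-1, which maintains neuronal fate, had 6.81 and 7.06 at its promoter. Each of these 4 had Trl in 1 replicate only, between 4.90 and 6.89.

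BTB transcription factors had 12 regions at 8 of 18 genes, 2.09% against 0.985%, among them rib, fru, chinmo and ttk (FruC-Myc 9.86 and 11.8). Hox genes had 5 at 2 genes, 0.870% against 0.402%: the 4 at Antp and 1 at Scr (9.09 and 9.29). Cell cycle and growth genes had 4, with 2 at Myc and 1 each at CycG and E2f1. Polarity genes had 2, cno and brat, the latter without function in both genotypes. Trithorax group genes had 3, ash2, trx and fs(1)h, and neuronal genes 3, at fne and Dscam1. GAGA-binding and insulator factors had 3, all at psq. Polycomb group, heat shock and ribosomal protein genes had 0, of 23, 7 and 15 FruC regions. These counts are too small to set any list apart, and no list was tested.

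Of the 4 regions of Antp, 3 lacked a FruCOM peak. Their FruC-Myc folds were 7.79 and 4.44, 12.8 and 12.4, and 16.8 and 12.0. All 4 overlapped an H3K9me3 peak, with folds of 3.06 to 5.03, and lay in H3K27me3 windows of 2250 to 10200 bp. None of the 4 lay in a listed H3K27ac or H3K4me3 window.

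H3K9me3, the mark of constitutive heterochromatin, had a peak in 81 of the 575 regions (14.1%, 11.5 to 17.2), against 16.1% of all FruC regions, 19.5% with Trl and full PRC2 and 11.7% with no partner. The peaks came from 1 list for both H3K9me3 samples, so agreement between replicates could not be looked at. Their fold had a median of 4.11 (2.12 to 8.69), beside 4.19 over all H3K9me3 peaks. None had a -log10 Q-value above 100, the limit that the study set for its own heterochromatin regions. By FruC strength the share was 4% below 25, 9.76% from 25 to 50, 11.4% from 50 to 100 and 28.7% at 100 or more.

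The 81 regions with an H3K9me3 peak differed from the other 494 in the histone windows around them. A listed H3K27me3 window of 4 kb or more covered 25 of them (30.9%, 21.9 to 41.6), against 6.28% (4.46 to 8.77) of the others, and any listed H3K27me3 window 92.6% against 75.3%. A listed H3K27ac window covered 51.9% (41.1 to 62.4) of the 81 and 76.1% (72.2 to 79.7) of the others. The 81 regions also had stronger FruC peaks, with a median -log10 Q-value of 84.0 against 65.5. From 50 to 100 the share with a window of 4 kb or more was 25.8% (13.7 to 43.2) of 31 regions against 9.17% (6.13 to 13.5) of 240. Whether the H3K9me3 antibody also recovered H3K27me3-marked chromatin was not tested.

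The listed histone windows come from the authors' search for changes of a mark between control and fruC-null brains. Their coordinates give neither a direction nor a level of a mark, so an overlap does not show that the mark was present. A listed window for H3K27ac, a mark of active promoters and enhancers, overlapped 418 of the 575 regions (72.7%, 68.9 to 76.2), against 71.3% of all FruC regions. A listed window for H3K4me3, a mark of active promoters, overlapped 461 (80.2%, 76.7 to 83.2), against 78.4%. Both were close to the background of all FruC regions.

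A listed window for H3K27me3, the product of PRC2, overlapped 447 of the 575 regions (77.7%, 74.2 to 80.9), against 69% of all FruC regions. Regions with Trl and full PRC2 stood at 90.4% (87.6 to 92.7) and those with no partner at 59.7% (57.8 to 61.5). The last class can include regions with either subunit alone. Within the 575 the share was 72.6% (67.0 to 77.6) with neither subunit, 81.5% (75.7 to 86.2) with Su(z)12 only and 84.0% (75.3 to 90.1) with Caf-1 only, so a lack of both peaks did not mean a lack of a window. From FruC -log10 Q-values of 50 to 100 the shares were 79.3%, 87.1% and 64.5% in the 3 classes. The listed windows for H3K27me3 cover 18.3% of the 6 arms. Windows for all 3 marks were listed at 283 regions (49.2%) and none at 12 (2.09%).

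Regions near the limits of the choice showed how it fell. The members with the fewest bases in common with a Trl peak were near lz (11 bases), lncRNA:CR46267 (22) and CG31224 (28), and the median was 107. The closest regions left out had a Trl peak 2 bp away at sba, 3 bp away at snRNA:7SKa and 13 bp away at CHES-1-like. In all 17 regions without Trl had a Trl peak within 100 bp.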

How the data were processed

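CUT&RUN peak lists were analysed for 12 transcription factor samples (FruC-Myc, FruCOM, Trl, Su(H), Su(z)12 and Caf-1, 2 each), together with 1 H3K9me3 list and 3 tables of histone windows. Per the study's methods, the authors used cutadapt for trimming and Bowtie2 for alignment to BDGP6, kept fragments under 120 bp for transcription factors and called peaks per replicate with MACS2. The deposited columns hold a score (10 times -log10 Q without decimals in 99.96% of 58758 peaks), a fold enrichment and -log10 P-values and Q-values. Read depth is unknown, so peak numbers (1141 and 1516 for Trl, 15563 and 5174 for FruC-Myc) may reflect it. The tables of windows, made by the authors with diffReps (500 bp), also hold log2 fold changes and adjusted p-values of their comparison, which were not used. 0 columns belonged to samples of other series. IgG, signal tracks and the ENCODE blacklist were not used here.

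Regions, overlaps (1 bp), nearest start sites (Ensembl release 115) and words were computed in Python 3.11.15 with numpy 2.4.6, scipy 1.17.1 and matplotlib 3.10.9. The code was tested on simulated data: 20000 and 5000 simulated peaks gave 2940 regions, 0 of which differed from bedtools 2.31.1, and 2000 of 2000 planted words were found. Shares carry 95% Wilson intervals. No test was run over regions, which are not replicates, and no comparison between groups of samples was possible for the peaks. The members and gene lists were chosen with earlier results of these data known, and retn was taken off the BTB list because its protein is an ARID factor. Named are the 10 regions highest in FruC-Myc and the 10 highest in Trl by the lower replicate, the 5 richest in GAGAG, the genes with most regions (12 with ties), and up to 4 regions per gene list. The alternatives were 26 other settings of peaks, overlaps and windows. Leaving out the repeat copies and regions near arm ends was added after the data were seen.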

Additional observations from a re-analysis of the deposited data

How the results depend on the processing

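Under the alternative settings, 124 values stayed within the counting interval or factor of the main value and 37 moved. Requiring Trl in both replicates left 128 regions, with a summit distance of 17 bp, FruCOM 80.5%, H3K4me3 windows 86.7%, GAGAG 78.9% and H3K9me3 20.3%. Trl peaks with -log10 Q above 10 left 69 regions, with 15 bp, FruCOM 79.7%, H3K27ac 76.8%, H3K27me3 68.1% and GAGAG 84.1%. FruC-Myc replicate 1 peaks above 100 left 115, with promoters 46.1%, FruCOM 89.6%, H3K27ac 62.6%, H3K27me3 88.7%, GAGAG 77.4% and H3K9me3 28.7%. Per the study's methods, only FruC peaks above that limit were kept for its own analyses. Leaving out regions with either PRC2 subunit left 270, with FruCOM 63.7%, H3K4me3 73.7% and H3K27me3 72.6%. A promoter of 250 bp upstream to 50 bp downstream held 33.4%, GAGAG was at 54.1% within 50 bp and 83.0% within 200 bp, GAGAGAG at 37.0%, and H3K9me3 peaks above 100 at 0%.

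Leaving out each replicate in turn gave 295 regions (without Trl replicate 2) to 817, FruCOM at 50.4% (without FruCOM replicate 1) to 80.2%, promoters at 48.8 to 53.5%, H3K27ac at 67.6 to 72.9%, H3K4me3 at 77.0 to 81.4%, H3K27me3 at 70.5 to 80.6%, GAGAG at 70.3 to 75.6%, H3K9me3 at 13.3 to 15.9% and summit distance at 22 to 35 bp. Leaving out regions within 25 kb of an arm end kept each value within its spread. The causes of these shifts were not tested. No paired analysis was possible because the results come from peak lists and not from a model over samples. Weak Trl peaks and unknown depth limit what a missing peak means.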

Other observations

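Other words were looked at without a test. TATCGAT, the core of the DNA replication-related element of housekeeping promoters, was within 100 bp of the FruC summit in 12 of the 575 regions (2.09%, 95% Wilson interval 1.20 to 3.61), beside 6.81% of all FruC regions, 2.54% with Trl and full PRC2, 13.5% with full PRC2 but no Trl, and 2.56% of all windows of the arms. GTGGGAA, the Su(H) word, was in 14 (2.43%), beside 2.50% of windows.

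GCCAT, the core of the word bound by the Polycomb recruiter Pleiohomeotic, was chosen for a look after the sequences had been seen. It lay within 100 bp of the FruC summit in 42 of the 81 regions with an H3K9me3 peak (51.9%, 41.1 to 62.4) and in 140 of the 494 without (28.3%, 24.5 to 32.5). All FruC regions stood at 32.5% and all windows at 35.4%. The match is a description of letters and not of binding.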
